A study of Mus musculus with 4 samples.

Results

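The genes described here encode parts of the tight junction: the claudins Cldn1, Cldn3, Cldn4, Cldn7, Cldn8 and Cldn10, occludin (Ocln), junctional adhesion molecule A (F11r) and the scaffold ZO-1 (Tjp1). They were chosen by name, as 9 of the 31053 gene rows in 4 single-cell count matrices of mouse prostate, and each was found in every matrix. Of these matrices, 3 held adult prostate cells from separate capture runs and 1 held explants of the embryonic urogenital sinus. The adult cells came from ICR (CD-1) males more than 8 weeks old carrying P2-Runx1:RFP, an allele in which red fluorescent protein (RFP) reports the proximal P2 promoter of the transcription factor gene Runx1. In such animals Runx1 itself is made from the other allele, so every adult cell, control or not, carried the reporter allele. EPCAM+ cells were sorted into RFP+ and RFP- fractions from 3 lobes, the anterior prostate (AP), the dorsolateral prostate (DLP) and the ventral prostate (VP), and each sorted population was pooled over animals. Mice were intact or castrated for more than 4 weeks, and castrated lobes were kept apart only in run 2. Intact RFP+ cells of the DLP were read only from run 3. The explants were made from ICR (CD-1) embryos at E15.5, grown with 10 µM dihydrotestosterone, an androgen, and taken on days 0, 1, 3 and 6.

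Tight junctions seal the space between neighbouring epithelial cells near their apical side. Claudins span the membrane and set which ions and solutes pass, some by closing the space and others, Cldn10 among them, by forming pores. Occludin and JAM-A are further membrane proteins of the junction, and ZO-1 ties all of these to the actin cytoskeleton. In the prostate the gland lumen is lined by luminal cells, which carry the apical junctions, while basal cells lie beneath them on the basement membrane.

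Counts of unique molecular identifiers (UMIs, each marking a captured RNA molecule) were summed over the cells of a sorted population, compartment and run. They are given as CPM, counts per 1e+06 UMIs of a total scaled by TMM, edgeR's factor for differences in RNA composition. A CPM can therefore differ from the plain share of UMIs in a sum. The reads mark the 3′ end of each RNA, so a CPM needs no correction for gene length. Of 4691 adult cells assigned to a population, 4041 were epithelial: 2020 basal-like and 2021 luminal-like. The defining markers fitted these names over 31 intact sums, with the basal keratin Krt5 at 667 to 1020 CPM in basal-like and 0 to 37.2 CPM in luminal-like sums, and the basal factor Trp63 at 61.8 to 169.5 against 0 to 4.91 CPM. Krt8, a luminal keratin, overlapped (313 to 944 against 319.7 to 1715 CPM), and Ptprc, which marks blood cells, stayed at 0 to 5.29 CPM. The sums held 260831 to 3051641 UMIs from 24 to 323 basal-like cells and 522586 to 9187443 UMIs from 10 to 209 luminal-like cells, and the sum of 10 cells was VP RFP- of run 1. Median depth per luminal-like cell differed between groups, from 9992 to 13630 UMIs in AP RFP+ to 46515 to 57772 in VP RFP+. Libraries shared at most 2 assigned cell barcodes.

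In intact prostate each compartment had its own members. The member genes were left out of the clustering that named the compartments, and the differences below are a description of clusters, with no test. They are medians of the log2(CPM + 1) difference, basal-like minus luminal-like, over the 15 population and run pairs with both compartments.

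Cldn1, a sealing claudin of the epidermis and of other stratified epithelia, was the basal claudin. It lay between 18.4 and 73.3 CPM in the 15 basal-like sums (median 37.1) and between 0 and 3.73 CPM in the 16 luminal-like sums, so the ranges did not overlap. The median difference was 4.34, and all 15 pairs were higher in basal-like cells. F11r, whose product JAM-A is also found outside tight junctions along lateral membranes, followed the same side at a smaller difference, with 75.9 to 224 CPM in basal-like and 55.9 to 97.4 CPM in luminal-like sums and a median difference of 1.25 in the same direction in 15 of 15 pairs.

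Cldn3 stood at the opposite end. Its lowest luminal-like sum held 196 CPM and its highest 744 CPM, while basal-like sums held 3.28 to 32.0 CPM, and the median difference was -5.61. Intact hematopoietic-like cells of the same libraries held Cldn3 at 6.29 to 24.8 CPM and Cldn1 at 15.51 to 41.5 CPM, and both ranges overlap those of the basal-like sums. How much of these low levels came from free RNA was not tested. Cldn10 (11.7 to 581 against 1.64 to 41.7 CPM, median difference -4.46) and Cldn8 (7.47 to 121 against 0 to 11.51 CPM, median difference -3.01) were higher in luminal-like cells too, but their lowest luminal-like sums lay within the basal-like range. Cldn7, a claudin of the basolateral membrane as well as the junction, was at 232 to 496 CPM in luminal-like and 29.1 to 202 CPM in basal-like sums, with no overlap and a median difference of -1.71.

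The remaining members, like F11r, were found in both compartments with overlapping ranges. Cldn4 was abundant in both, with 285 to 728 CPM in basal-like and 175 to 451 CPM in luminal-like sums, and 14 of 15 pairs were higher in basal-like cells at a median difference of 0.76. Ocln was low in both, with 2.45 to 24.8 and 17.2 to 41.5 CPM, and 14 of 15 pairs were higher in luminal-like cells at a median difference of -1.30. Tjp1 differed least, with 22.7 to 63.9 against 17.9 to 51.1 CPM and a median difference of 0.35. Cldn3 and Cldn4, neighbours in the genome, thus differed in pattern, with Cldn3 luminal and Cldn4 only somewhat higher in basal-like cells.

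**Figure D1:**
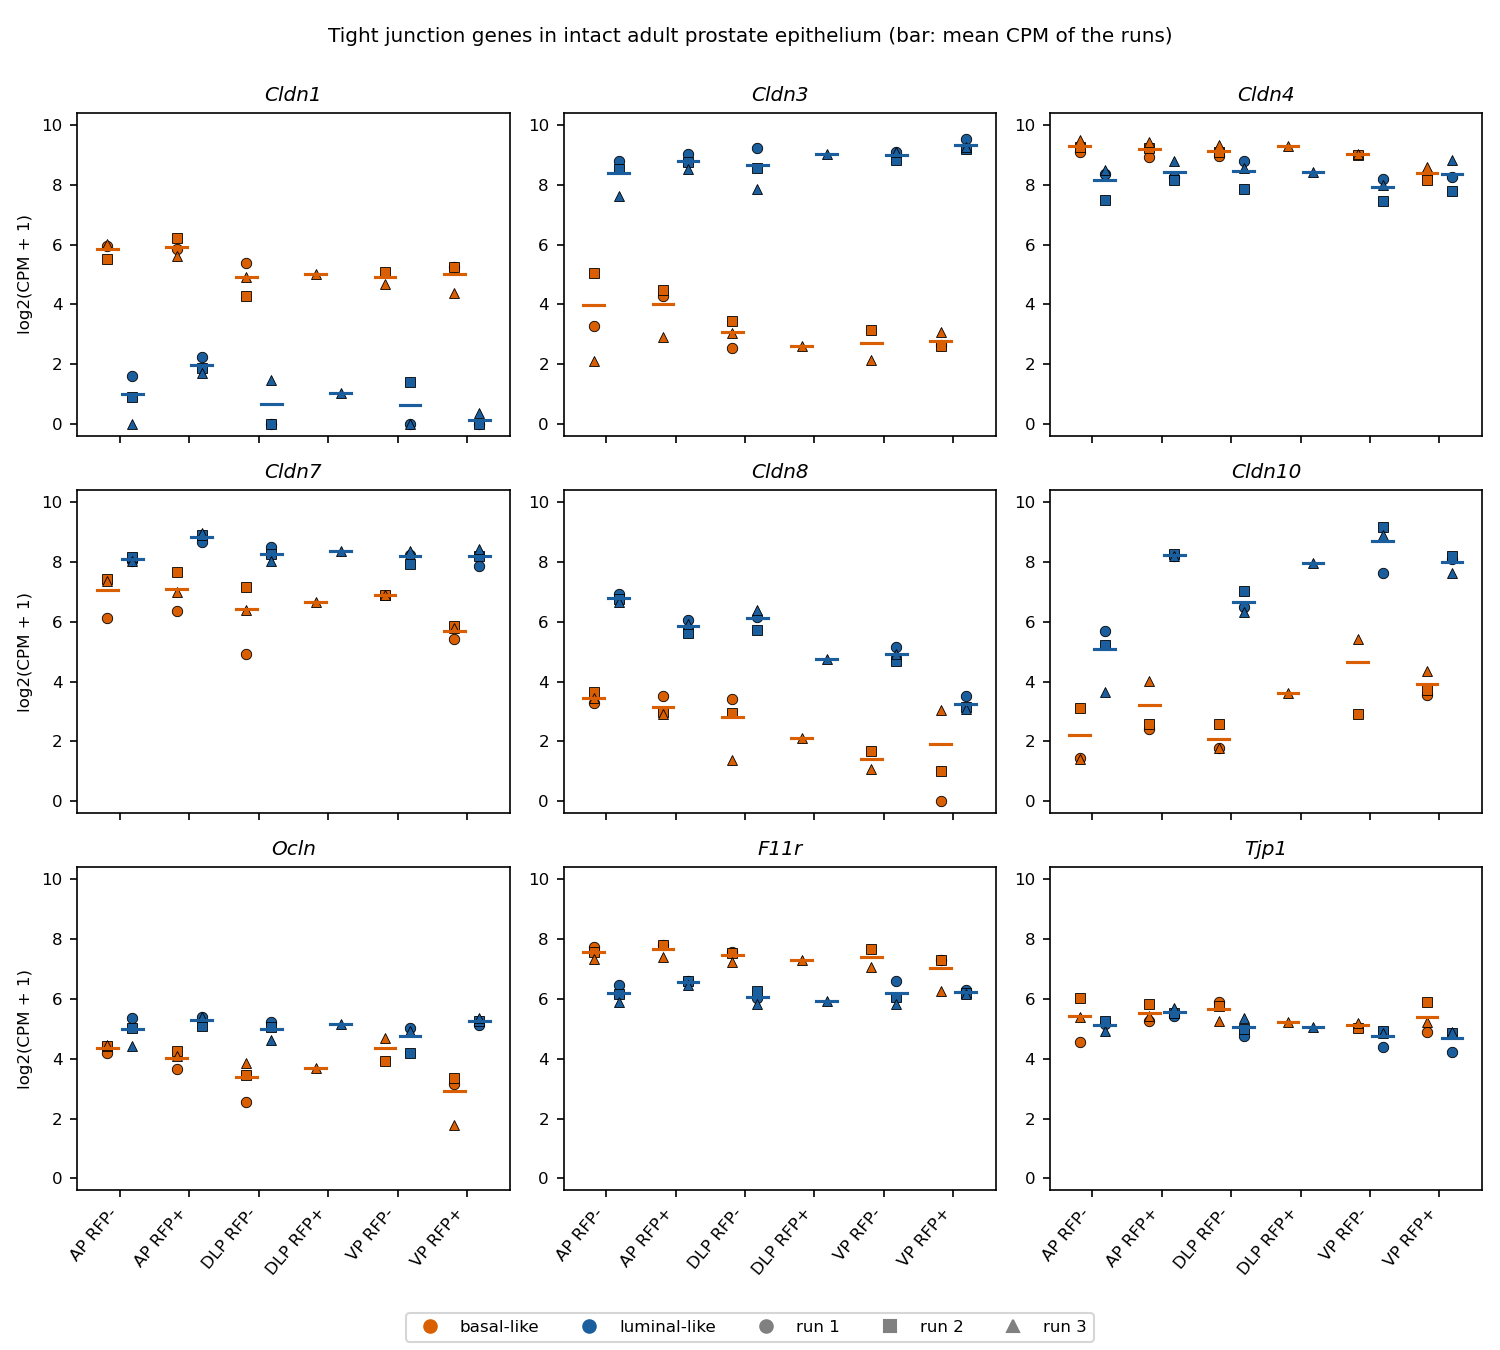
Level of each gene, as log2(CPM + 1), in intact basal-like (orange) and luminal-like (blue) cells by lobe and RFP fraction, with 1 point per run (shape) and a bar at the mean CPM. The basal-like points of Cldn1 (18.4 to 73.3 CPM) lie above all its luminal-like points, those of Cldn3 lie below (luminal-like 196 to 744 CPM), and luminal-like Cldn10 is lowest in AP RFP- cells (11.7 to 51.0 CPM).

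In GRCm38 with the GENCODE annotation, Cldn3 lies at chr5:134986214-134987472 on the plus strand and Cldn4 at chr5:134945119-134946934 on the minus strand, 39279 bases apart with no protein-coding gene between them. Their promoters, 250 bases before the RefSeq start and 50 after it, are shown because these divergent neighbours differed in compartment pattern. Cldn3 was luminal, whereas Cldn4 was abundant in both compartments. Capitals mark CAGGTG or its reverse complement, the E-box read by Snail and Zeb repressors of epithelial junction genes, searched on both strands.

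Cldn3, chr5:134985964-134986263, plus strand: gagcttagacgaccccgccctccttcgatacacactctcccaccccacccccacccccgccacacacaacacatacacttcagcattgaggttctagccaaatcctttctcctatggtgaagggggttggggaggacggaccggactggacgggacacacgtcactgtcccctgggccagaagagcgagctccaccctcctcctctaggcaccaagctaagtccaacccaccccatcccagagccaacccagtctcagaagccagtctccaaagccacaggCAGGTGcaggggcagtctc
Cldn4, chr5:134946885-134947184, minus strand: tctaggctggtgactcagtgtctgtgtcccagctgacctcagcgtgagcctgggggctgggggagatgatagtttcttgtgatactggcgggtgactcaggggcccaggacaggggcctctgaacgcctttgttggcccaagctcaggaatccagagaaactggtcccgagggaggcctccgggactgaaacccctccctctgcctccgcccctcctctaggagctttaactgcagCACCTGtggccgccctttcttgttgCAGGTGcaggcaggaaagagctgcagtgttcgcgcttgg

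The motif begins at +32 in Cldn3 and at -14 and +12 in Cldn4, counted from the first transcript base. It occurs in 20.2% of 32851 RefSeq promoters of the same length, so a match is common and describes only these letters. Of 11 windows for 8 members, F11r (-122), Ocln (-213 and -68, of which the former is the same motif as +8 in the overlapping window of a second start) and the second start of Cldn7 (-97 and -57) also held it, and Cldn1, both starts of Cldn10 and Tjp1 did not. AACNGGTT, a Grainyhead-type motif searched on both strands, occurs in 2.1% of promoters and in 0 of these windows. No window was at hand for Cldn8. The noncoding gene Wbscr25 runs antisense over Cldn3 exons, and it held 136 UMIs against 27083 for Cldn3 over all sums, although whether the counting used strand is not given in the sources used here.

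The reporter comparison asks how cells with an active Runx1 P2 promoter differ from their RFP- neighbours in the same lobe. In luminal-like cells of the AP, Cldn10 and Cldn7 rose with RFP and Cldn8 fell. The tests below are edgeR's quasi-likelihood tests on the sums with Benjamini-Hochberg adjustment over all genes tested. Their main fit held the groups without a term for run, so it left the pairing of sums by run out. The paired fit, with run as a replicate block, is given where it added a member's call. A member not called is therefore one not called by the unpaired fit. The runs, which the paper describes as independent experiments, serve as replicates. The p-values measure only the spread between runs, in which pools of animals and technical steps cannot be told apart. In this comparison 13% of tested genes were called higher and 11.3% lower in RFP+ cells, and of 8 members tested 2 were called higher and 1 lower (Cldn1 had too few UMIs to be tested).

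Cldn10 was at 292, 308 and 295 CPM in AP RFP+ luminal-like cells of runs 1, 2 and 3, and at 51.0, 36.7 and 11.7 CPM in AP RFP- cells. Every RFP+ value lay far above every RFP- value, the groups were 298 ± 8.19 and 33.1 ± 19.9 CPM (SD, n = 3), and the log2 fold change was 3.13 (SE 0.374, adjusted p = 0.000737). Cldn7 was at 410.2, 477 and 496 CPM in RFP+ and 264, 283 and 264 CPM in RFP- cells, again without overlap. Its log2 fold change was 0.79 (SE 0.187, adjusted p = 0.0139), and the adjusted p was 0.161 without run 2 and 0.07 without run 3, at log2 fold changes of 0.76 and 0.72. Cldn8 was at 65.7, 48.0 and 59.3 CPM in RFP+ and 121, 106 and 101 CPM in RFP- cells, so here all RFP+ values were the lower ones. Its log2 fold change was -0.90 (SE 0.173, adjusted p = 0.00564), and without run 2 it was -0.84 with an adjusted p of 0.0748.

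The other tested members did not pass. Cldn3 was at 527, 434 and 364 CPM in RFP+ and 439, 371 and 196 CPM in RFP- cells (log2 fold change 0.42, adjusted p = 0.345). These values overlapped between groups but were higher in RFP+ cells in each run, and with run as a replicate block the log2 fold change was 0.47 with an adjusted p of 0.0413. The scaffold Tjp1 had a log2 fold change of 0.44 (adjusted p = 0.0953), F11r 0.38 (0.165), Ocln 0.30 (0.386) and Cldn4 0.27 (0.575). Cldn4 was at 308, 282 and 438 CPM in RFP+ and 329, 177 and 359 CPM in RFP- cells, so its spread between runs was larger than the difference.

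The AP fractions held different luminal clusters. Cluster 2, led by Psca and Krt4, which mark proximal luminal cells, made up 80.2% to 87.1% of luminal-like AP RFP+ cells, and cluster 4, led by the secretory gene Tgm4, made up 82.3% to 93.5% of luminal-like AP RFP- cells. Summed basal markers also differed in these sums, at 957 to 1960 CPM in RFP+ and 79.0 to 579 CPM in RFP- cells. Over all intact luminal-like sums Krt5 reached at most 37.2 CPM, the basal keratin Krt14 118.5 CPM and Trp63 4.91 CPM. Other genes of the list thus made up most of the RFP+ basal sums. Summed hematopoietic markers were at 0.456 to 202 CPM in RFP+ and 0 to 7.94 CPM in RFP- cells. Over all intact luminal-like sums Ptprc reached at most 5.29 CPM, and Cd74, another hematopoietic marker, 187.4 CPM. The part of basal or hematopoietic RNA in the differences above was not tested. Within intact cluster 2 Cldn10 was at 369.5 to 397 CPM, and within cluster 4 at 1.93 to 10.9 CPM. Cldn8 was at 47.5 to 56.6 CPM in cluster 2 and 101 to 119 CPM in cluster 4, and Cldn7 at 449.6 to 589 against 233 to 261 CPM.

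In the VP the picture was another. Luminal-like Cldn8 was at 10.5, 7.84 and 7.48 CPM in RFP+ cells and at 34.4, 24.8 and 29.6 CPM in RFP- cells, with no overlap, a log2 fold change of -1.82 (SE 0.268) and an adjusted p of 0.0352. Without run 1 the log2 fold change stayed at -1.82 with an adjusted p of 0.0459, but without run 2 it was -1.93 with an adjusted p of 0.597, and without run 3 it was -1.68 with 0.944. With run as a replicate block the adjusted p was 0.00334. It was the only one of 8 members called there, lower in RFP+ cells, against a background of 0% of tested genes called higher and 0.312% lower, which was 25 genes without and 116 genes with the replicate block. Cldn10 was at 272, 294 and 196 CPM in RFP+ cells and at 198, 581 and 475 CPM in RFP- cells (log2 fold change -0.80, adjusted p = 0.855). The RFP- value of run 1, the sum of 10 cells, was the low one of that group. VP RFP+ cells were mostly of cluster 1, led by Sbp and Spink1 (86.3% to 94.6%), with 0.7% to 2% in cluster 8, led by Msmb. VP RFP- cells were 50% to 68.7% of cluster 1 and, in the 2 larger runs, 29.9% to 32.6% of cluster 8. Within intact cells Cldn8 was at 6.7 to 10.65 CPM in cluster 1 and 53.4 to 61.1 CPM in cluster 8. The part of this mix in the VP difference of Cldn8 was not tested.

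The RFP difference of Cldn10 itself differed between the lobes. The interaction, the AP difference minus the VP difference, was 3.92 on the log2 scale (SE 0.563, adjusted p = 0.00294). Without run 2 it was 3.83 with an adjusted p of 0.158, and without run 3 it was 3.36 with 0.057, so the size stayed while the call did not. Cldn10 was the 1 member of 8 called, in the direction in which 2.98% of tested genes were called, with 2.09% in the other. The replicate block added Cldn7 (0.83, adjusted p = 0.0226) and Cldn8 (0.90, adjusted p = 0.0181). Cldn8 was lower in the RFP+ cells of both lobes, and its unblocked interaction was not called.

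**Figure D2:**
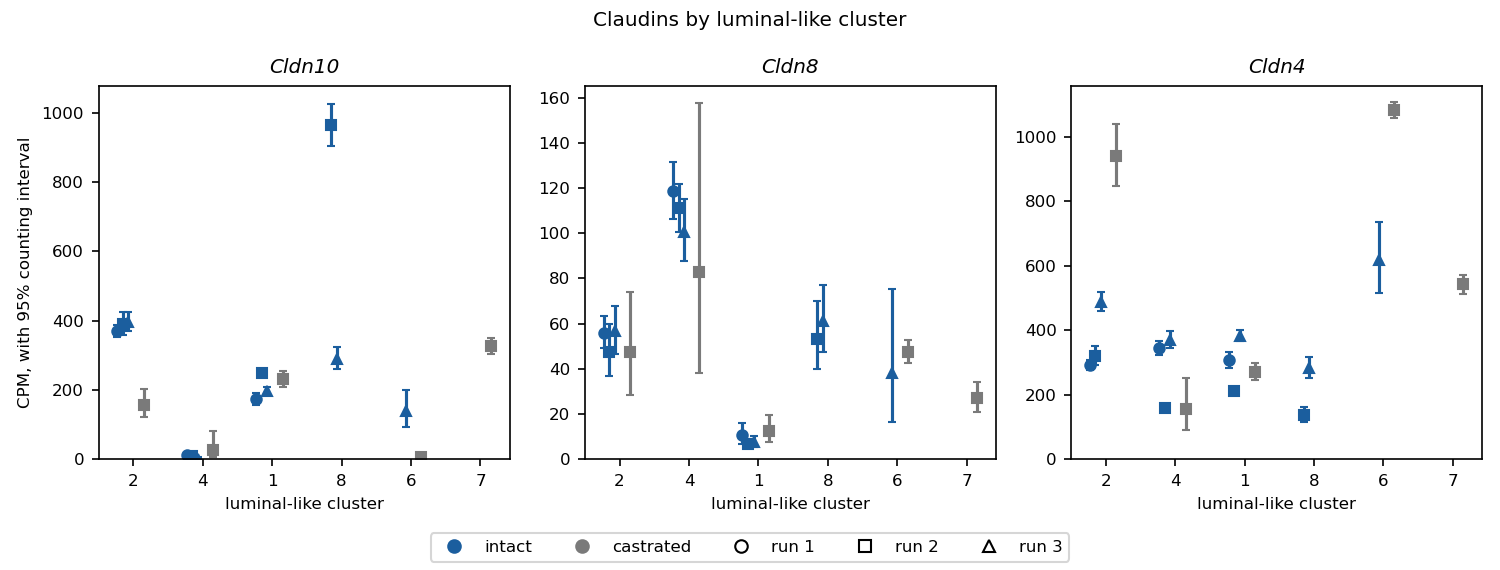
CPM of Cldn10, Cldn8 and Cldn4 by luminal-like cluster in intact (blue) and castrated (grey) prostate, 1 point per run (shape) with its 95% counting interval. Intact Cldn10 is at 1.93 to 10.9 CPM in cluster 4 and 369.5 to 397 CPM in cluster 2, and castrated Cldn4 is at 1081 CPM in cluster 6.

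In basal-like cells of the AP no member was called for RFP. Both directions were called in 0% of tested genes, with 92 genes at an unadjusted p under 0.05 by edgeR and 0 calls by DESeq2, and 0 of the 8 members tested had an unadjusted p under 0.05. With run as a replicate block 45 genes and 0 members were called. Cldn1, for example, was at 59.3 ± 12.9 CPM in RFP+ and 56.4 ± 10.1 CPM in RFP- basal-like cells, Cldn4 at 591 ± 104 and 631 ± 90.6 CPM and F11r at 205 ± 31.0 and 188 ± 26.4 CPM (SD, n = 3 each).

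Lobes were compared within each RFP fraction. Between RFP+ luminal-like cells of the AP and VP, 15.4% of tested genes were called higher and 12.4% lower in the AP, and 3 of 8 members tested were called, all higher in the AP. Cldn8, which ran at 65.7, 48.0 and 59.3 CPM in the AP against 10.5, 7.84 and 7.48 CPM in the VP, had a log2 fold change of 2.81 (SE 0.209, adjusted p = 0.000203) and was well apart in every run. Tjp1 was at 42.0, 45.4 and 51.1 CPM in the AP and 17.9, 27.8 and 28.5 CPM in the VP, again apart, with a log2 fold change of 0.88 (SE 0.2, adjusted p = 0.0128). Without run 2 Tjp1 was at 0.94 with an adjusted p of 0.0888, and without run 3 at 0.90 with 0.0912. Cldn7 was at 410.2, 477 and 496 CPM in the AP and 232, 292 and 347 CPM in the VP, with a log2 fold change of 0.68 (SE 0.198, adjusted p = 0.0348). Without run 2 Cldn7 was at 0.62 with an adjusted p of 0.237, and without run 3 at 0.76 with 0.101. The replicate block added Cldn3, the luminal claudin, lower in the AP (-0.55, adjusted p = 0.00948), and F11r, higher there (0.35, adjusted p = 0.022). Cldn3 ran at 527, 434 and 364 CPM in the AP and at 744, 581 and 619 CPM in the VP, without overlap.

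Cldn10 in these RFP+ cells was not called between the lobes, at 298 ± 8.19 CPM in the AP and 254 ± 51.9 CPM in the VP (SD, n = 3), and the single DLP RFP+ sum of run 3 held 249.2 CPM. In RFP- cells luminal-like Cldn10 was at 51.0, 36.7 and 11.7 CPM in the AP, 89.1, 131 and 79.0 CPM in the DLP and 198, 581 and 475 CPM in the VP, so the 3 lobes were in this order with no overlap between any pair. Between AP and VP the log2 fold change was -3.68 (SE 0.486, adjusted p = 0.00106). Cldn8 was in the reverse order, at 121, 106 and 101 CPM in the AP, 70.7, 52.2 and 83.2 CPM in the DLP and 34.4, 24.8 and 29.6 CPM in the VP, and its AP against VP log2 fold change was 1.90 (SE 0.206, adjusted p = 0.000385). These were the 2 of 8 members called, beside 7.69% of tested genes higher and 7.92% lower in the AP.

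Between AP and DLP RFP- luminal-like cells 0 of 8 members were called, beside 0.504% of genes higher and 0.246% lower in the AP. At an unadjusted p under 0.05 there were 2 members and 838 genes, and DESeq2 called 1 member and 137 genes. Run as a replicate block called 593 genes and 2 members, Cldn8 at 0.67 (adjusted p = 0.0169) and Cldn10 at -1.66 (adjusted p = 0.000559). In both lobes cluster 4 was the main one, with 82.3% to 93.5% of AP RFP- and 53.7% to 73.3% of DLP RFP- luminal-like cells.

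In RFP+ basal-like cells, AP against VP, 0 of the 7 members tested were called, with 0.21% of tested genes higher and 0.407% lower. At an unadjusted p under 0.05 there were 4 members and 595 genes, DESeq2 called 0 members and 86 genes, and the replicate block called 4 members and 550 genes against 47 genes without it. The 4 were Cldn7 (1.42, adjusted p = 1.96e-07), Cldn1 (0.88, adjusted p = 0.00556), Cldn4 (0.75, adjusted p = 2.83e-05) and F11r (0.57, adjusted p = 0.00573), all higher in the AP. Cldn4 was at 483, 600.5 and 690.5 CPM in AP and 331, 285 and 382 CPM in VP basal-like cells, Cldn1 at 56.9, 73.3 and 47.8 against 37.1, 36.6 and 19.6 CPM, and Cldn7 at 81.7, 202 and 126 against 42.4, 57.0 and 53.9 CPM. F11r was at 224, 220.5 and 169 against 156, 159 and 75.9 CPM. The VP sums held as few as 24 cells.

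**Figure D3:**
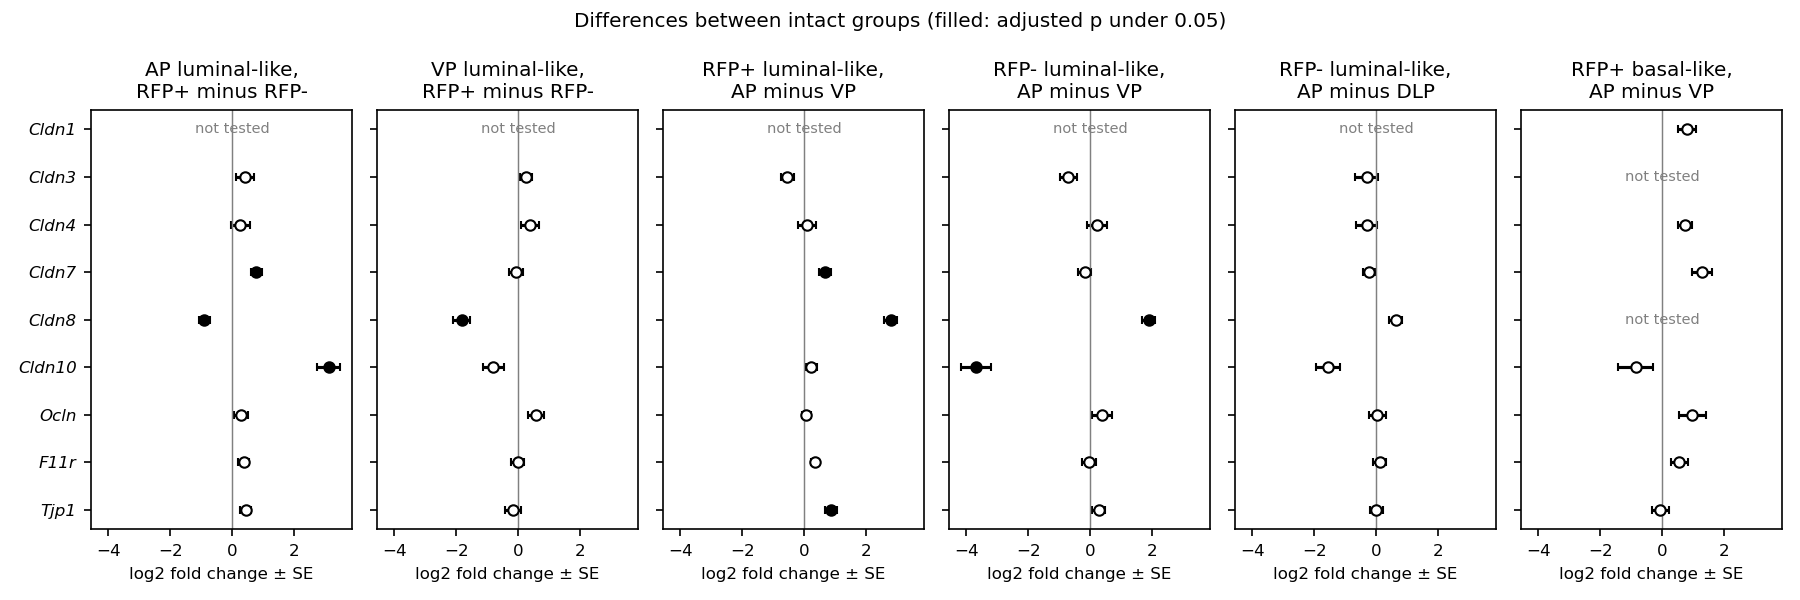
Log2 fold change ± SE of each gene in 6 comparisons of intact cells, 1 panel each, with filled points for an adjusted p under 0.05. Cldn8 is filled in both luminal-like panels of AP minus VP (2.81 and 1.90), and Cldn10 is at 3.13 for RFP+ minus RFP- in the AP and at -0.80, not filled, in the VP.

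Cldn10 lies at chr14:118787908-118875489 on the plus strand of GRCm38 and has 2 RefSeq starts far apart, whose products differ in their first part. The 3′ UMI counts do not tell transcripts of these starts apart. Both promoters are shown because this claudin had the widest range in CPM of the members over the luminal-like sums, from 11.7 to 581 CPM, and neither holds the E-box or AACNGGTT.

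Cldn10 first start, chr14:118787621-118787920, plus strand: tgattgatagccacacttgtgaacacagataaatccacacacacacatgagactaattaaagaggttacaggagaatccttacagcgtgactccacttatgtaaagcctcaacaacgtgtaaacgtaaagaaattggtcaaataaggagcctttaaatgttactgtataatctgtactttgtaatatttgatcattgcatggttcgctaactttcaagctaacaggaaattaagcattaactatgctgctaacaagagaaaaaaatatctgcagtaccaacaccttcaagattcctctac
Cldn10 second start, chr14:118854700-118854999, plus strand: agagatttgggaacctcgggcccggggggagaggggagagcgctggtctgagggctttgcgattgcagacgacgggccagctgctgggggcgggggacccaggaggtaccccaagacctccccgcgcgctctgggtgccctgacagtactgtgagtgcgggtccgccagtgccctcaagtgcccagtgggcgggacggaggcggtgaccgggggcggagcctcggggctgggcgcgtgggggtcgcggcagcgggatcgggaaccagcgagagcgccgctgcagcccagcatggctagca

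The windows differ in composition, with 36% G and C in the first and 72% in the second.

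A wider list of tight junction genes, read beside the members, also differed by RFP in the AP. Of 27 listed genes 18 were tested in luminal-like cells, 11 were called higher and 0 lower in RFP+ cells, beside 13% and 11.3% of all genes tested, and their median log2 fold change was 0.83 against -0.004 over all genes. The leading ones were the polarity gene Pard6b (2.38), the adhesion receptor Cxadr (2.07) and Amotl2 (1.96). Of 9 adherens junction genes 6 were called higher, with a median of 0.86, led by Nectin1 (1.80), the E-cadherin gene Cdh1 (1.24) and the beta-catenin gene Ctnnb1 (1.04). Of 7 transcription factors known to act on junction genes, Klf5 (2.73), Elf3 (2.56) and Ovol1 (1.53) were called higher, and Ehf (-0.64), named after its value was seen, was the 1 called lower.

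Between RFP+ luminal-like cells of the AP and VP, 7 of 18 tight junction genes were called higher in the AP, led by Pard6b (2.90), Amotl2 (1.20) and Cxadr (0.93), and 5 of 9 adherens junction genes, led by Nectin1 (1.79), the alpha-catenin gene Ctnna1 (1.13) and Cdh1 (0.90). Of 7 regulators 4 were higher, led by Elf3 (1.81), Klf5 (1.32) and Ovol2 (1.08), and 1 was lower, Grhl1 (-0.52, named after its value was seen). These counts stand beside 15.4% of all genes called higher and 12.4% lower, and the list medians were 0.50, 0.62 and 1.03 against 0.03 over all genes. Between RFP- AP and VP cells, of 16 tight junction genes tested, the claudin gene Cldn23 (-1.47), Cgnl1 (-1.37) and the tricellular junction gene Lsr (-1.03) were called lower in the AP, and the regulator Ehf was called higher (1.46), beside 7.92% of all genes lower and 7.69% higher. The median of the tight junction list was -0.33 there, against 0.02 over all genes. In the lobe interaction 3 of 19 tight junction genes were called, all positive: Pard6b (2.37), Cxadr (1.84) and Lsr (1.15), beside Ctnna1 (0.80) of 9 adherens junction genes and the regulators Elf3 (2.38), Klf5 (2.00) and Ehf (-1.09), with 2.98% of all genes called positive and 2.09% negative. By the unpaired fit no gene of the 3 lists was called for RFP in the VP or in AP basal-like cells, nor between AP and DLP or in the basal-like lobe comparison.

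Castration removes testicular androgen, and here castrated and intact cells of run 2 were set side by side. There was 1 sum per group, so ratios are given with a 95% counting interval and no test, and a gene is called when it differs by 2-fold or more with at least 10 UMIs. Intervals cover counting error only and not differences between animals. Cldn4 was higher after castration in all 4 luminal-like populations, and the ratios were largest in the AP. It went from 282 to 1311 CPM in AP RFP+ cells, a ratio of 4.65 (4.25 to 5.1), and from 177 to 959.5 CPM in AP RFP- cells, a ratio of 5.42 (4.88 to 6.04). In DLP RFP- cells it went from 229 to 472 CPM (2.06, 1.7 to 2.48) and in VP RFP+ cells from 220 to 554 CPM (2.52, 2.33 to 2.73). Run 2 had the lowest intact Cldn4 in each of these populations, and the castrated levels also lay above the highest intact run, which was at 438 CPM in AP RFP+, 359 CPM in AP RFP-, 438 CPM in DLP RFP- and 451 CPM in VP RFP+ cells, though in the DLP by little.

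Cldn10 went in opposite directions in the AP fractions. It was 10.1-fold lower in castrated AP RFP+ luminal-like cells, at 30.6 against 308 CPM (ratio 0.0995, 0.0806 to 0.122). In castrated AP RFP- cells it was at 93.5 against 36.7 CPM, a ratio of 2.55 (1.9 to 3.4), and the castrated fractions were thus in the reverse order of the intact ones. Of the 48 castrated AP RFP- cells 10 (20.8%) were of cluster 1 and 72.9% of cluster 6, and over all castrated cells Cldn10 was at 231 CPM in the former and 5.46 CPM in the latter. Cluster 1 was also the main luminal-like cluster of intact VP RFP+ cells. Its cells were deep, at a median of 4.18 times the median UMIs of epithelial cells in their library. The part of this mix in the AP RFP- ratio, and so in the reversed order, was not tested. Cldn8 was 2.46-fold lower in castrated AP RFP- cells (43.2 against 106 CPM, ratio 0.406, 0.282 to 0.571) and 2.21-fold lower in DLP RFP- cells (23.6 against 52.2 CPM, ratio 0.452, 0.198 to 0.909). In VP RFP+ cells, where intact Cldn8 was lowest, it was higher after castration (26.3 against 7.84 CPM, ratio 3.36, 2.24 to 5.1). Each of these castrated levels of Cldn10 and Cldn8 lay outside the intact range of the same population over the 3 runs.

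Among the membrane and scaffold partners, Tjp1 was at 92.0 against 45.4 CPM in AP RFP+ luminal-like cells, a ratio of 2.03 (1.6 to 2.6), and with cells of at most 7500 UMIs its log2 ratio was 0.62, under the 2-fold limit. In the same cells Ocln had a ratio of 1.96 (1.48 to 2.62), F11r 1.71, Cldn3 1.68, Cldn7 1.46 and Cldn8 1.13, all under the 2-fold limit. Of the 8 members counted in each luminal-like comparison, 2 were called higher and 1 lower in AP RFP+ cells, beside 9.41% and 10.8% of all genes counted. In AP RFP- cells these were 2 and 1 beside 8.21% and 15%, in DLP RFP- cells 1 and 1 beside 6.19% and 15.2%, and in VP RFP+ cells 2 and 0 beside 9.58% and 11.5%. The median log2 ratio of the members was 0.76, 0.67, 0.05 and 0.51 in these 4 comparisons, against 0.02, -0.10, -0.11 and -0.02 over all genes counted.

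Castrated luminal-like cells also fell into other clusters. Cluster 6, led by Basp1, Lpl, Prr9 and Clu, made up 82.4% of castrated AP RFP+ and 72.9% of castrated AP RFP- cells, and cluster 7, led by Ang4 and Car2, 83.3% of castrated VP RFP+ cells. Within castrated cells Cldn4 was at 1081 CPM in cluster 6, 939 CPM in cluster 2, 542 CPM in cluster 7 and 270.5 CPM in cluster 1. In intact cells of the same run Cldn4 was at 320.3 CPM in cluster 2, 159.5 CPM in cluster 4 and 210.3 CPM in cluster 1. Cluster 2, present in both treatments, held more Cldn4 after castration than in any intact run (291 to 488 CPM), and less Cldn10 (157 CPM against 369.5 to 397 CPM), while Cldn4 in castrated cluster 1 lay within its intact range (210.3 to 383 CPM). In run 2 the castrated cells of cluster 2 were few, with 18 AP RFP+, 6 DLP RFP+ and 12 VP RFP+ cells. The intact ones were 81 AP RFP+, 4 AP RFP-, 7 DLP RFP- and 5 VP RFP+ cells. The part of this lobe mix in the cluster 2 differences was not tested. Cldn10 was at 5.46 CPM in castrated cluster 6, 327 CPM in cluster 7 and 231 CPM in cluster 1.

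Of the wider tight junction list, 3 of 19 genes counted were called higher and 3 lower after castration in AP RFP+ luminal-like cells, 6 and 0 of 19 in AP RFP- cells, 1 and 4 of 19 in DLP RFP- cells, and 5 and 2 of 20 in VP RFP+ cells. The shares of all genes called higher and lower in these comparisons were 9.41% and 10.8%, 8.21% and 15%, 6.19% and 15.2%, and 9.58% and 11.5%. The adhesion receptor Cxadr was called higher in each of the 4, with ratios of 2.76, 4.58, 2.94 and 4.93 in that order. Pard6b was called higher in AP RFP+ (2.1), AP RFP- (4.94) and VP RFP+ cells (2.08). Of the adherens junction genes Cdh1 had ratios of 2.03 and 3.07 in the AP fractions. These names were chosen after their values were seen, for passing 2-fold in more than 1 population.

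**Figure D4:**
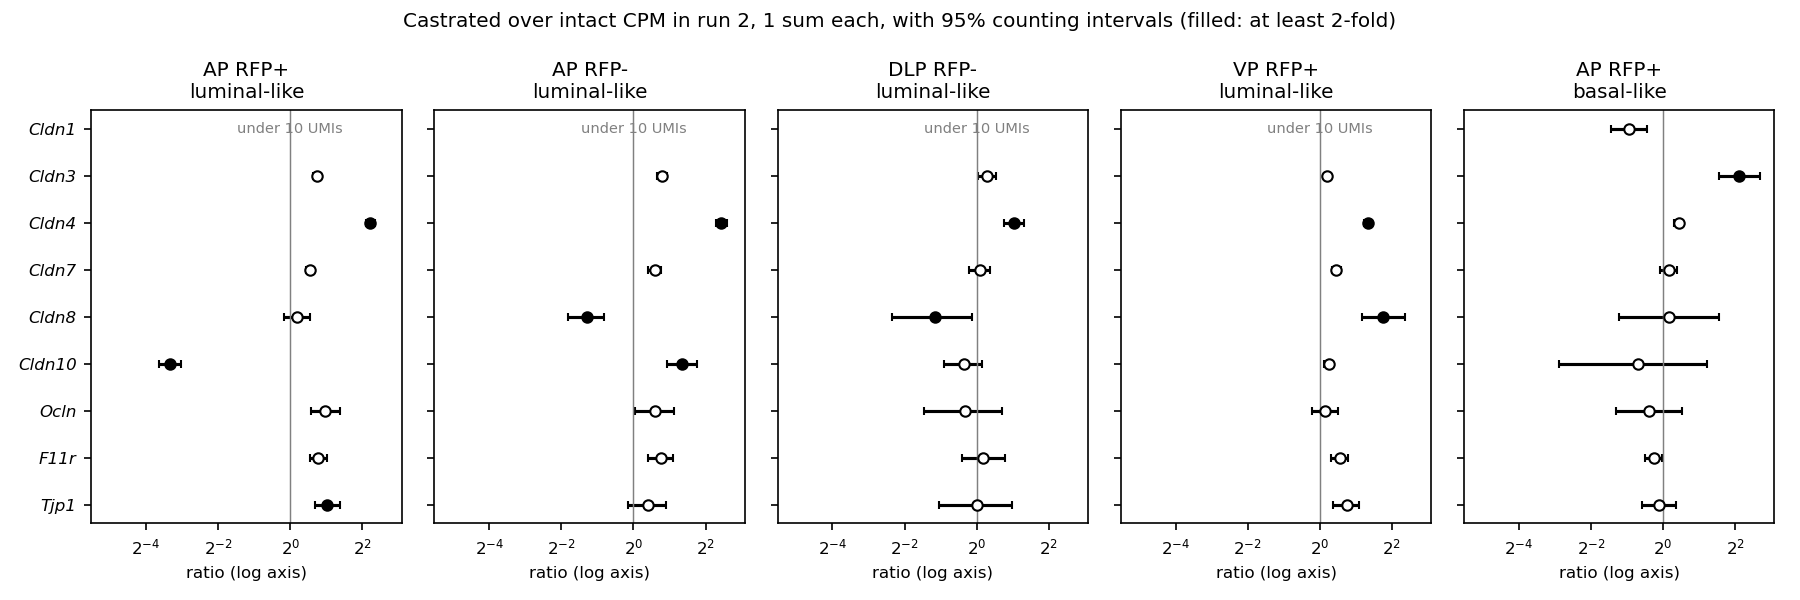
Ratio of castrated to intact CPM (log axis) of each gene in run 2 with its 95% counting interval, in 4 luminal-like populations and AP RFP+ basal-like cells, with a line at a ratio of 1 and filled points for 2-fold or more. Cldn4 is filled in all 4 luminal-like panels (2.06 to 5.42), and Cldn10 is at 0.0995 in AP RFP+ luminal-like cells.

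Castrated basal-like cells could be compared in the AP and VP RFP+ fractions. In AP RFP+ basal-like cells Cldn3 was the 1 of 9 members called, at 90.6 against 21.1 CPM (ratio 4.29, 2.91 to 6.48), beside 6.62% of genes called higher and 8.44% lower. Summed luminal markers in that castrated sum were at 5144 CPM, against 1756 to 3747 CPM in intact AP RFP+ basal-like sums, and their part in this ratio was not tested. The log2 ratio was 1.01 without the highest 6% of doublet scores and 0.088 with cells of at most 7500 UMIs, so the latter ended the call. Basal Cldn1 had a ratio of 0.524 in these cells, at 38.4 against 73.3 CPM. In VP RFP+ basal-like cells 1 member was called higher and 2 lower of 8, beside 6.87% and 14.7% of genes, all on few UMIs: Cldn3 on 7 against 5 (ratio 3.04, 0.832 to 12.2), Cldn1 on 8 against 36 (0.483, 0.194 to 1.06) and Cldn10 on 1 against 12 (0.181, 0.00424 to 1.22). Each of these intervals holds 1, so no difference was detectable at this depth. The median log2 ratios of the members were -0.11 and 0.48, against -0.02 and -0.11 over all genes counted.

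The explants follow prostate epithelium as it buds from the urogenital sinus in culture. Of 5198 assigned cells 4038 were prostatic epithelial-like, with 470, 475, 1043 and 2050 on days 0, 1, 3 and 6, 1 pool each from 1 library, so the same counting intervals and 2-fold limit apply and a day cannot be told apart from its pool. The early epithelium carried the Cldn4, Cldn7 and F11r set at a high level and little of Cldn1, Cldn8 or Cldn10. Cldn4 ran at 258, 270.3, 189 and 164 CPM over days 0, 1, 3 and 6, Cldn7 at 337, 299.5, 297 and 158 CPM, and F11r at 115, 125, 127 and 136 CPM. F11r and Tjp1, which was at 52.2, 51.0, 48.4 and 48.1 CPM, were the steadiest members.

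Cldn3 was highest on day 1. It was at 38.8 CPM on day 0, 84.4 on day 1 (ratio 2.18, 1.95 to 2.43), 59.0 on day 3 and 16.3 on day 6, which was 3.62-fold lower than day 3 and 2.38-fold lower than day 0. On day 1 470 of the Cldn3 UMIs came from 37 luminal-like cells and 478 from the other 438 prostatic cells, which were at 46.6 CPM, against 35.3 CPM in such cells on day 0. Cldn1 went from 0.87 CPM on day 0 over 1.69 and 1.91 to 5.06 CPM on day 6, a ratio of 5.8 (3.15 to 11.9) to day 0, while staying far under the adult basal-like levels (which were scaled apart). Cldn10 was at 1.27, 3.03, 1.96 and 1.48 CPM, with a day 1 ratio of 2.39 (1.28 to 4.63), and Cldn8 at 10.39, 11.9, 8.12 and 6.09 CPM. Ocln was lower on each later day, at 34.3, 26.2, 18.6 and 14.2 CPM, and was 2.41-fold lower on day 6 than on day 0 (ratio 0.415), as Cldn7 was 2.13-fold lower (ratio 0.47).

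Of the 9 members, 2 were called higher and 0 lower on day 1 against day 0, beside 5.34% and 4.38% of genes counted. On day 3 against day 1 these were 0 and 0 beside 4.53% and 5.01%, on day 6 against day 3 1 and 1 beside 4.13% and 4.04%, and on day 6 against day 0 1 and 3 beside 10.7% and 10.2%. In the last comparison the wider tight junction list had 1 gene called higher and 8 lower of 23, the regulators 1 and 6 of 10, and the adherens junction genes 0 and 1 of 10. The lower genes included the embryonic claudins Cldn6 (ratio 0.153) and Cldn9 (0.234), Cldn23 (0.0834), and the Grainyhead factor Grhl3 (0.151), and the higher regulator was Snai2 (7.93), a repressor of junction genes. Levels differed between classes of cells within a day. In the luminal-like explant cells, a Psca and Krt4 cluster of 37, 107 and 84 cells on days 1, 3 and 6, Cldn3 was at 918, 346 and 237 CPM and Cldn4 at 1026, 619 and 658 CPM. In the other prostatic cells Cldn3 was at 35.3 CPM on day 0 and 46.6, 29.6 and 7.77 CPM on days 1, 3 and 6, and Cldn4 at 266, 245, 148 and 149.6 CPM. Cldn3 was thus lower on day 6 than on day 1 in both classes.

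**Figure D5:**
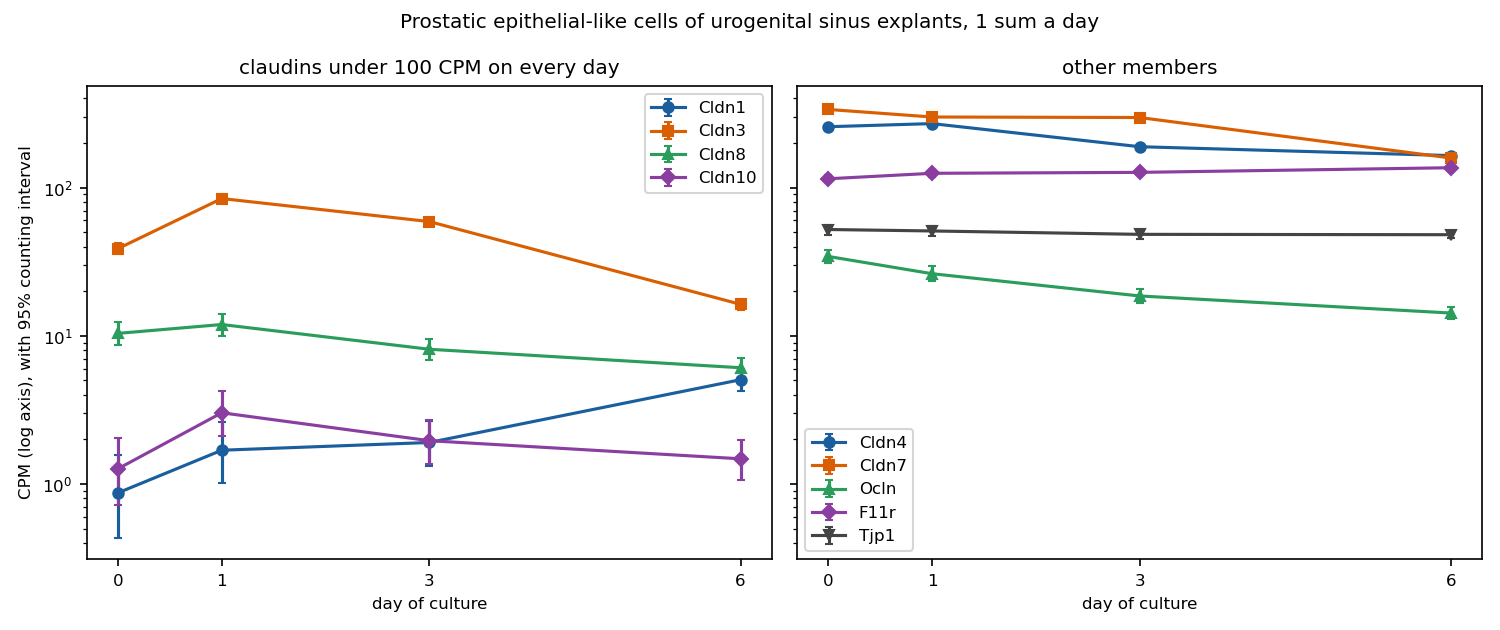
CPM (log axis) of each gene in prostatic epithelial-like explant cells by day of culture, 1 sum a day with its 95% counting interval, on the left for the claudins under 100 CPM and on the right for the other genes. Cldn3 is highest on day 1 (84.4 CPM), Cldn1 on day 6 (5.06 CPM), and Tjp1 stays between 48.1 and 52.2 CPM.

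Genes with the most similar pattern were named for each member by Pearson's r of log levels over the 31 intact sums, among 2173 genes. These correlations mostly trace the basal and luminal compartments, which all sums share by run and depth, and are a description. Cldn1 was nearest to Dlk2 (0.973) and Fmo2 (0.969), Cldn3 to Spint2 and Tspan1 (both 0.978), and F11r to the desmosomal gene Dsp (0.932) and the calcium pump gene Atp2b1 (0.922). Cldn7 was nearest to Ceacam1 (0.923) and Chmp3 (0.911), Cldn8 to Plac8 (0.937) and Cd59a (0.907), Cldn10 to Lrrc26 (0.932) and the chloride transporter gene Slc12a2 (0.909), and Ocln to Chchd10 (0.872) and Mettl26 (0.871). Cldn4 (Impdh2, 0.798, and Ptp4a1, 0.796) and Tjp1 (Cul1, 0.786, and Scaf11, 0.76) had no gene as close. Among the members Cldn1 and F11r ran together (0.907), as did Cldn7 and Ocln (0.887), and Cldn1 ran against Cldn3 (-0.926).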

How the data were processed

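Droplet-based 3′ single-cell libraries of adult prostate and explants, multiplexed with lipid-anchored barcodes, were processed by the authors, per the labels with Cell Ranger 3.1.0 on mm10 and Seurat 3.1.5, and deposited as raw UMI counts per gene and cell, with counts of the sample barcodes. Cells were assigned to populations from those barcodes. Adult cells with more than 750 and fewer than 7500 detected genes and under 10% mitochondrial UMIs were kept, and explant cells with more than 1000 genes and under 7.5%. They were clustered without the members and junction lists (Seurat 5.3.0, scanpy 1.11.5) and named from marker genes. Marker UMIs alone gave the same compartment for 97.6% of adult epithelial cells. Scrublet predicted 14, 20, 3 and 0 doublets in runs 1, 2 and 3 and the explants, too few to count as having worked, so all cells were kept and leaving out the highest 6% of scores was an alternative.

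UMIs were summed per run, population and compartment (at least 10 cells) and tested with edgeR 4.0.16 in R 4.3.3 (TMM, filterByExpr, quasi-likelihood, Benjamini-Hochberg, threshold 0.05). DESeq2 1.42.0 was an alternative. CPM were computed from the deposited counts over TMM-scaled totals, apart for adult and explant sums. The libraries held 35051876, 86381807 and 40087244 UMIs (runs 1 to 3) and 121090404 (explants), with 824, 2194, 1673 and 5198 assigned cells. Castrated cells of run 1 (17 epithelial) were not analysed here. Both RFP fractions of a lobe were sorted from the same pool of intact animals in a run, so runs pair them. The lobes of a run were multiplexed and captured together, so runs pair them as well. Correlations of same-run deviations were 0.037 to 0.67 over all RFP and lobe pairs. The highest was RFP+ against RFP- AP basal-like cells in run 1. Between lobes they ran from 0.037, for AP against VP RFP- in run 2, to 0.503, for AP against DLP RFP- in run 3. Ratio intervals are exact conditional binomial intervals at 95%. The named genes were the 9 members, the 3 called genes of each junction list with the largest absolute log2 fold change per test, and for each member the 2 genes of at least 50 CPM, outside all lists, with the highest correlation. One gene of the junction lists is not reported here by name. The members, lists and tests were chosen with earlier results of these data known. The test step was tested on simulated data for the RFP comparison of AP luminal-like cells.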

Additional observations from a re-analysis of the deposited data

Results flagged for a closer look

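One value met a fixed criterion, a difference between groups under the same contrast. The RFP+ minus RFP- difference of Cldn10 in luminal-like cells was larger in the AP than in the VP by 3.92 on the log2 scale (SE 0.563, edgeR quasi-likelihood interaction term, adjusted p = 0.00294). Cldn10 was higher in RFP+ cells of the AP in 3 of 3 runs, while in the VP it was lower in RFP+ cells in runs 2 and 3 and higher in run 1, whose RFP- sum held 10 cells. The adjusted p was 0.158 without run 2 and 0.057 without run 3.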

How the results depend on the processing

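Of 63 tests of members in the 8 replicated comparisons 10 were called. Of 837 alternative values of the members in these tests, 757 kept their direction and side of the threshold, 16 lost and 16 gained a call, and 48 changed sign, each of a member that was not called. Of the unreplicated values, 302 alternatives for castration stayed within the counting interval and 15 moved out of it, for the explants 181 stayed, 20 moved and 1 changed sign, and for basal-like against luminal-like cells 87 stayed within the spread and 3 moved. Where no value shows a cause, the cause was not tested.

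Among the alternatives other than leaving out a run, the AP RFP call of Cldn7 was lost in 1 fit over all intact sums and with cells of at most 7500 UMIs, that of Cldn8 with at most 7500 UMIs, the VP call of Cldn8 with at least 20 cells per sum, and the RFP+ lobe call of Cldn7 in 1 fit over all intact sums. With at most 7500 UMIs, which left fewer cells, 286 genes and 1 member were called for RFP in the AP, and tests with VP luminal-like cells were not run because no sums were left.

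With run as a replicate block, the paired fit, calls rose to 116 genes for RFP in the VP, 45 in AP basal-like cells, 593 between AP and DLP with 2 members, 550 with 4 members in the basal-like lobe comparison, 5 members between RFP+ lobes, and 1185 genes with 3 members in the interaction. It lost no member's call. DESeq2 called 66, 137 and 86 genes for VP RFP, AP against DLP and the basal-like lobes, 1 member between AP and DLP and 2 in the interaction. Without a filter on low counts these were 138, 338 and 234 genes, with 6 in AP basal-like cells, 1784 between RFP- AP and VP, and 1 member each between AP and DLP and in the basal-like lobes. That setting moved the median of all genes by 0.157 at most. One fit over all intact sums called 50 genes for VP RFP and 158 between AP and DLP, barcode thresholds alone 12 for VP RFP, at least 20 cells 0 members for VP RFP, marker UMIs 1 member in the basal-like lobes, and at most 7500 UMIs 1 gene between AP and DLP and 2 in the basal-like lobes.

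Values that changed sign, on the log2 scale, were as follows. For VP RFP, F11r was at 0.039 (no filter), 0.013 (block), 0.049 (1 fit), 0.2 (20 cells), 0.173 (Scrublet) and 0.091 (barcode thresholds), and Cldn7 at 0.002 (1 fit). For AP basal-like RFP, Cldn7 was at 0.026 (no filter), 0.016 (1 fit), 0.182 (marker UMIs), 0.055 (Scrublet) and 0.067 (barcode thresholds), Cldn1 at -0.051 (block), -0.06 (marker UMIs), -0.052 (Scrublet) and -0.05 (7500 UMIs), Cldn8 at 0.252 (marker UMIs) and F11r at -0.01 (7500 UMIs). Between RFP- AP and VP, F11r was at 0.055 (no filter), 0.176 (20 cells), 0.145 (Scrublet) and 0.058 (barcode thresholds). Between AP and DLP, Ocln was at -0.053 (block), and Cldn3 at 0.041 and Cldn7 at 0.1 (7500 UMIs). In the basal-like lobes Tjp1 was at 0.016 (no filter), 0.021 (block) and 0.044 (1 fit), and Cldn10 at 0.175 (marker UMIs). In explants with at most 7500 UMIs, which left 7, 12, 25 and 52 cells, Cldn7, called lower on day 6 than on day 0, was at 0.223.

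Leaving out 1 run gave 759 to 1703 genes and 1 to 3 members for AP RFP, 0 to 46 genes and 0 to 1 members for VP RFP, 1048 to 2487 genes and 1 to 3 members between RFP+ lobes, 326 to 989 genes between RFP- AP and VP, 2 to 60 between AP and DLP, 0 to 45 in the basal-like lobes, and 7 to 328 genes with 0 to 1 members in the interaction. Members whose sign then varied ranged as follows. For AP basal-like RFP, Cldn1 ran from -0.277 to 0.257, Cldn3 from -0.052 to 1.154, Cldn7 from -0.199 to 0.225 and Tjp1 from -0.072 to 0.245. For VP RFP, Cldn7 ran from -0.192 to 0.132 and F11r from -0.105 to 0.172, and in the basal-like lobes Tjp1 from -0.111 to 0.141. Between RFP+ lobes Cldn4 ran from -0.055 to 0.167 and Ocln from -0.017 to 0.12, between AP and DLP F11r from -0.016 to 0.283, Ocln from -0.012 to 0.097 and Tjp1 from -0.095 to 0.245, and between RFP- AP and VP F11r from -0.105 to 0.04 and Ocln from -0.02 to 0.713. In the interaction Cldn3 ran from -0.064 to 0.296, Cldn4 from -0.266 to 0.127 and Ocln from -0.591 to 0.2.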

Other observations

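In the DLP the castrated RFP+ luminal-like cells of run 2 (147 cells) and the intact ones of run 3 (65 cells) came from different runs, so treatment and run cannot be told apart. Cldn10 was at 31.0 CPM in the former and 249.2 CPM in the latter, Cldn4 at 679 against 347 CPM and Cldn8 at 37.9 against 25.9 CPM.

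Outside the epithelium, endothelial-like cells of intact prostate held Cldn4 at 393 to 643 CPM, F11r at 165 to 217 CPM and Cldn1 at 23.5 to 53.1 CPM. These ranges lie within those of the intact basal-like sums (285 to 728, 75.9 to 224 and 18.4 to 73.3 CPM). All cells had been sorted as EPCAM+, and the part of basal-like RNA or doublets in these levels was not tested. Hematopoietic-like cells held Cldn1 at 15.51 to 41.5 CPM when intact and at 228 CPM (81 cells) in castrated cells of run 2, with 1 sum and no test. Mesonephric-like adult cells held Cldn3 at 430 to 903 CPM. In the explants mesonephric-like cells held Cldn3 at 339, 463, 603 and 394 CPM on days 0, 1, 3 and 6 and Cldn8 at 80.1, 51.3, 97.97 and 89.4 CPM. Their Cldn10 was at 0, 89.4, 231 and 6.50 CPM on these days.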
